A study of Mus musculus with 6 samples.

Results

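The BCL2 family and the cellular inhibitors of apoptosis (cIAPs) were examined through 10 genes, Mcl1, Bcl2, Bcl2l1, Bcl2l11, Bmf, Bid, Bax, Bak1, Birc2 and Birc3. They were taken by symbol from the 25001 loci of an RNA sequencing series in mouse cells, of which 22601 carry a symbol, and each of the 10 symbols had 1 row. The 427 cells are a mouse thymoma line with epithelial features, used to study epithin/PRSS14 (gene St14), a membrane serine protease whose intracellular domain (EICD) is released when SPPL2b cuts the stub left by shedding. Each of the 6 conditions had 1 library of polyA RNA. 427 DMSO and 427 PMA were 427 cells stably carrying the pSUPER vector, kept 2 h without serum and then given DMSO or 1 µM PMA, a phorbol ester that activates protein kinase C and induces shedding, for 2 h. SP2bKD DMSO and SP2bKD PMA were knockdown cells for SPPL2b handled in that way. SP2bKD GFP and SP2bKD GFP+EICD were knockdown cells transfected with a GFP vector, alone or with FLAG-tagged EICD, and sorted for GFP 24 h later. The transfected cells were the clone SP2bKD-10. The clone behind the DMSO and PMA knockdown libraries was not given in the sources used here, and the labels name an siRNA where the methods describe a stable shRNA.

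BCL2 family proteins decide whether the outer mitochondrial membrane is opened during apoptosis. Guards (MCL1, BCL2 and BCL-XL, the product of Bcl2l1) bind and restrain the pore-forming effectors BAX and BAK, and BH3-only proteins (BIM, the product of Bcl2l11, BMF and BID) bind the guards or act on the effectors. The cIAPs encoded by Birc2 and Birc3 are ubiquitin ligases of the tumour necrosis factor receptor complex, where they act on RIPK1 and on signalling to NF-kappaB. Epithelial cells depend on attachment for survival, and BMF and BIM are known for their part in anoikis, the death of detached epithelial cells.

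Bmf was the only member that moved more than 2-fold in any of the 7 comparisons among members that reached an FPKM of 1 in a library of the comparison. FPKM counts fragments per kilobase of exon, relative to all fragments of a library. Bmf fell with PMA in both lines, rose with EICD, and was lower in the GFP library than in the SP2bKD DMSO library. Bid reached 1.84-fold and 1.98-fold higher values with PMA, just inside the 2-fold limit. The guards and effectors stayed within 1.69-fold in every comparison of the values as deposited. With 1 library in each condition no difference could be tested against the spread between cultures, so every fold below compares 2 libraries, and bulk RNA does not tell fewer cells of a kind from less RNA per cell.

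Sppl2b, the gene of the knockdown, was at 9.90, 6.86, 13.4, 9.37, 11.4 and 13.2 FPKM in the order of the libraries above. The libraries labelled as knockdown were therefore not lower in Sppl2b than their 427 counterparts at this locus, and SP2bKD below names the label. The study tested its knockdown clones for SPPL2b mRNA by real-time PCR and reported less PMA-induced EICD in them, in experiments apart from these libraries. St14, whose sequence the EICD construct carries in part, rose from 69.6 FPKM in the GFP library to 614.5 FPKM in the GFP+EICD library. Of 9 markers of thymic epithelium, 7 were at 1 FPKM or more in all 6 libraries, and their sum ranged from 6328 to 15032 FPKM. Aire was listed at 0 and Psmb11 stayed below 1. Of 7 markers of thymocytes and other T cells, 6 stayed below 1 FPKM in every library, and Cd3e, Cd4 and Thy1 were listed at 0. The sum was 1.96 to 3.68 FPKM, most of it from Rag1 at 1.73 to 3.50 FPKM. Of 4 myeloid markers, Cd68 was at 1.25 to 2.58 FPKM and Csf1r at 2.37 to 7.35 FPKM. Itgam and Lyz2 stayed below 1 FPKM. The depth, estimated from the steps of the lowest FPKM values, was 24100000 to 29550000 fragments, and 10 loci took 85.6% to 94.2% of the FPKM sum.

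The sequences before the start of 4 members are shown because these genes held the largest values among the members with PMA in 427 cells (Bmf, Bid and Birc2) or with EICD (Bmf and Bcl2l11). Each is the stretch before the RefSeq start lying farthest upstream, 5′ to 3′ in the direction of the gene on GRCm38.p6, cut before the first exon base of the member in GENCODE. Capitals mark matches to the motifs searched.
Bmf, chr2:118549688-118549936, minus strand: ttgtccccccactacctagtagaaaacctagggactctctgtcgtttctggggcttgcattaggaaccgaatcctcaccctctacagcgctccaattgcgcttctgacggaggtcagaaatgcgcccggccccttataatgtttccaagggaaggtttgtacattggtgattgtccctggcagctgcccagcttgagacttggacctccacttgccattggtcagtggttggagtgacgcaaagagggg
Bid, chr6:120916854-120917074, minus strand: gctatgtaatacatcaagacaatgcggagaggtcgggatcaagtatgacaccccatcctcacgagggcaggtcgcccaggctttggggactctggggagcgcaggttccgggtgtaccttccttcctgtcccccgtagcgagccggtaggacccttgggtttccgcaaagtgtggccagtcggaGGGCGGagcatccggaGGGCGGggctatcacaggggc
Bcl2l11, chr2:128125788-128126037, plus strand: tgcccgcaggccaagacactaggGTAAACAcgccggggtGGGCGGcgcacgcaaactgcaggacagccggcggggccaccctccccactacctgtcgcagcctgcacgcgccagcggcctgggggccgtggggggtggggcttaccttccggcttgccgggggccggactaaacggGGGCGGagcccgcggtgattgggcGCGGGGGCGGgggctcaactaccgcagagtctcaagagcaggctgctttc
Birc2, chr9:7837065-7837307, minus strand: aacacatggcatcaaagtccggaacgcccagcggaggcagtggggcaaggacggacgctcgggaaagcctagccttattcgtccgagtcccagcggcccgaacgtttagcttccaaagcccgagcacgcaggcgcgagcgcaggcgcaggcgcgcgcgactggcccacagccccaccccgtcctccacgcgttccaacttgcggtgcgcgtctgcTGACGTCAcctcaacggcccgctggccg

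The search covered windows of 300 bases, 250 before and 50 after the start, on both strands, in 16 windows of the 10 members and in all 32851 windows of the RefSeq table. The AP-1 motif TGANTCA was in 7.81% of all windows and in 0 of the 16. The GC box GGGCGG was in 35.7% of all windows and in 8 of the 16, among them the windows shown for Bid and Bcl2l11. A GC box of the Bmf window and 1 of the Bid window fell outside the printed stretch. The EGR motif GCGNGGGCG (5.55% of all windows) and the FOXO motif GTAAACA (3.65%) were each in 1 of the 16, the Bcl2l11 window above, where the EGR match overlapped a GC box. The cAMP response element TGACGTCA, in 1.79% of all windows, was in the Birc2 window above and in no other window of the 16. The NF-kappaB motif (GGG, any 2 bases, then TTTCC), in 1.63%, was in 1 window of Mcl1 and 1 of Bcl2l1. A match is a string of letters and was not tested as a binding site.

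Levels are compared between members per length, as FPKM. The guard Mcl1 was highest in 5 of the 6 libraries, at 65.9 to 103.6 FPKM, and Bax exceeded it in the SP2bKD DMSO library alone, by 66.5 to 65.9 FPKM. Bax, Bak1, Bid and Bcl2l1 followed between 27.8 and 73.3 FPKM, then Bcl2l11 and Birc2 between 6.79 and 22.8 FPKM. Bcl2 was low for a guard, at 2.59 to 4.15 FPKM, which placed it between 8.61% and 14.5% of the way up the loci at 1 FPKM or more in a library. Neighbours in this order such as Bak1, Bid and Bcl2l1 exchanged places between libraries. Birc3 was listed at 0 to 0.080 FPKM, about 6 estimated fragments at most by the longest transcript, and no fold is given for it.

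**Figure D1:**
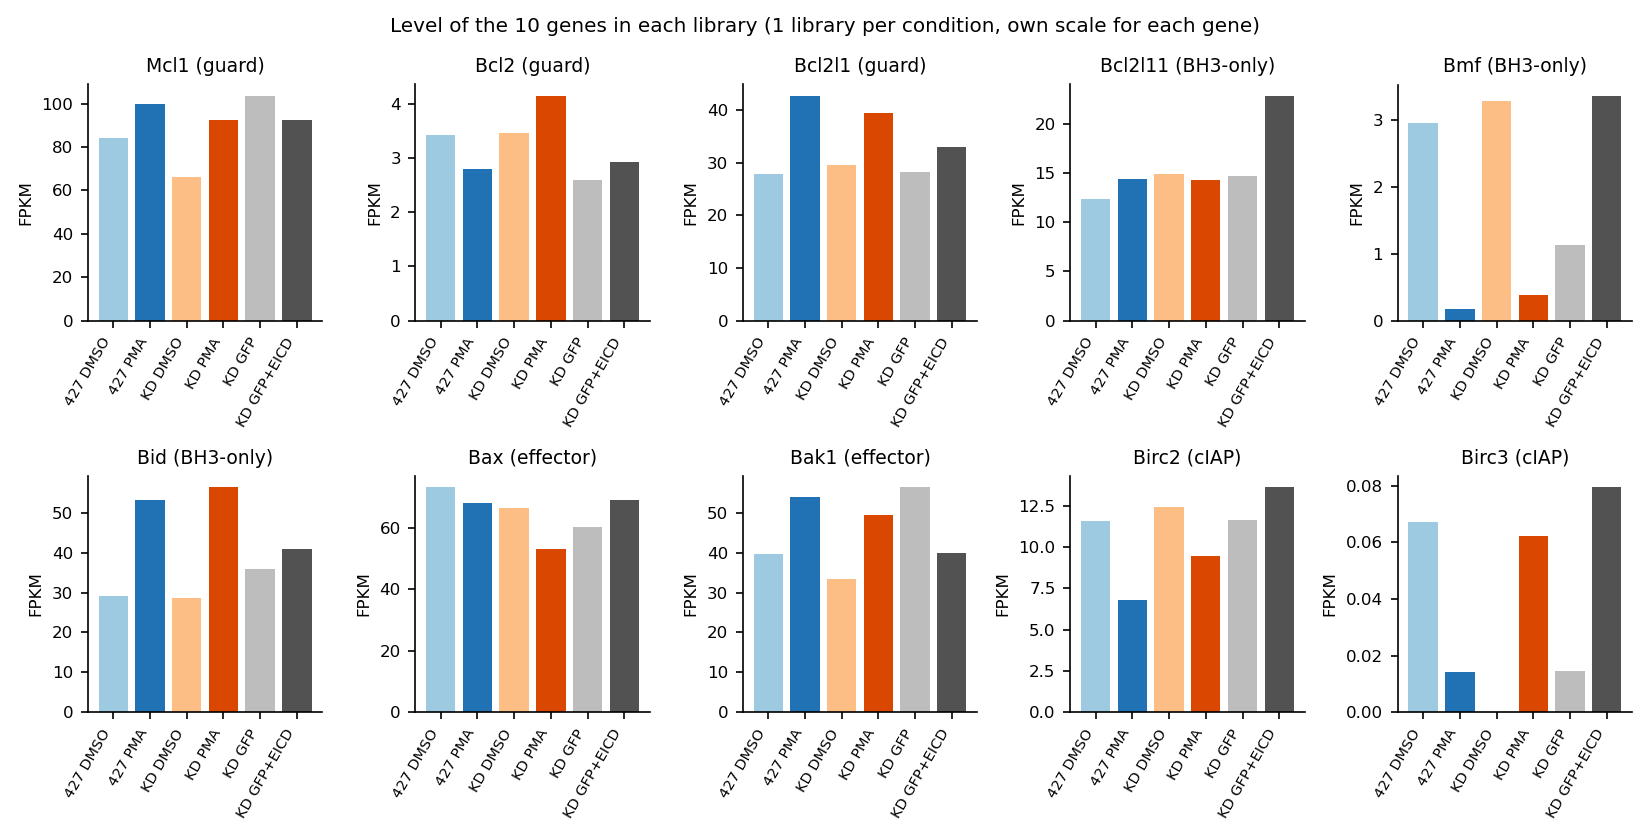
FPKM of each of the 10 genes (vertical axis, from 0, a scale for each gene) in each of the 6 libraries (KD stands for SP2bKD); a bar is 1 library, with no error. Among the 9 genes that reach 1 FPKM, Bmf has the highest ratio of its highest to its lowest level, 3.36 and 0.173 FPKM, and Bid is higher in both PMA libraries than in the other 4.

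Among the BH3-only genes, Bmf was at 2.96 FPKM in 427 DMSO, 0.173 in 427 PMA, 3.28 in SP2bKD DMSO, 0.381 in SP2bKD PMA, 1.12 in SP2bKD GFP and 3.36 in SP2bKD GFP+EICD. Both PMA libraries lay below the other 4, the GFP library lay between, and the 2 DMSO libraries and the GFP+EICD library were close to each other. BMF is a BH3-only protein held at the cytoskeleton in healthy cells, and its locus (chr2:118528757-118549687, minus strand) shares no exon bases with another annotated gene.

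Bid was at 29.1 FPKM in 427 DMSO, 53.3 in 427 PMA, 28.6 in SP2bKD DMSO, 56.5 in SP2bKD PMA, 35.9 in SP2bKD GFP and 41.0 in SP2bKD GFP+EICD. Both PMA libraries stood above the other 4. How many of all loci separate in this way was not counted, for Bid or for any other member. BID links death receptors to mitochondria after cleavage by caspase-8. Its annotated exons share 628 bases with Bcl2l13 on the opposite strand, and the labels do not say that the library kit kept strand. Bcl2l13 itself was at 42.9 to 60.3 FPKM, with its lowest value in 427 PMA. The part of reads from the shared bases in the Bid values was not tested.

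Bcl2l11 was at 12.4 FPKM in 427 DMSO, 14.4 in 427 PMA, 14.9 in SP2bKD DMSO, 14.3 in SP2bKD PMA, 14.7 in SP2bKD GFP and 22.8 in SP2bKD GFP+EICD. The GFP+EICD library stood apart and the other 5 lay between 12.4 and 14.9 FPKM. BIM, its product, binds all guards.

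Among the guards, Mcl1 was at 84.2 FPKM in 427 DMSO, 99.8 in 427 PMA, 65.9 in SP2bKD DMSO, 92.5 in SP2bKD PMA, 103.6 in SP2bKD GFP and 92.4 in SP2bKD GFP+EICD. MCL1 is a short-lived guard. The SP2bKD DMSO library was its lowest. Bcl2l1 was at 27.8 FPKM in 427 DMSO, 42.7 in 427 PMA, 29.6 in SP2bKD DMSO, 39.5 in SP2bKD PMA, 28.2 in SP2bKD GFP and 32.9 in SP2bKD GFP+EICD, so that both PMA libraries were its highest. Bcl2 was at 3.41 FPKM in 427 DMSO, 2.80 in 427 PMA, 3.45 in SP2bKD DMSO, 4.15 in SP2bKD PMA, 2.59 in SP2bKD GFP and 2.92 in SP2bKD GFP+EICD. Its 2 PMA libraries lay on opposite sides of the DMSO libraries, and 558 of its exon bases overlap an antisense gene, D630008O14Rik.

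Of the effectors, Bax was at 73.3 FPKM in 427 DMSO, 68.1 in 427 PMA, 66.5 in SP2bKD DMSO, 53.0 in SP2bKD PMA, 60.2 in SP2bKD GFP and 69.1 in SP2bKD GFP+EICD. Bak1 was at 39.6 FPKM in 427 DMSO, 54.1 in 427 PMA, 33.4 in SP2bKD DMSO, 49.5 in SP2bKD PMA, 56.5 in SP2bKD GFP and 40.0 in SP2bKD GFP+EICD. The 3 libraries low in Bak1 were the 2 DMSO libraries and GFP+EICD. The ratio of Bax to Bak1 was accordingly 1.72 to 1.99 in those 3 and 1.07 to 1.26 in the PMA and GFP libraries. Exons of Bax share 192 bases with Gm45808, and exons of Bak1 share up to 437 bases with Ggnbp1 on the opposite strand.

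Of the cIAPs, Birc2 was at 11.6 FPKM in 427 DMSO, 6.79 in 427 PMA, 12.5 in SP2bKD DMSO, 9.47 in SP2bKD PMA, 11.6 in SP2bKD GFP and 13.6 in SP2bKD GFP+EICD. Both PMA libraries lay below the other 4. Birc3 was at 0.067 FPKM in 427 DMSO, 0.014 in 427 PMA, 0.062 in SP2bKD PMA, 0.015 in SP2bKD GFP and 0.080 in SP2bKD GFP+EICD, and was listed at 0 in SP2bKD DMSO.

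The comparison of PMA with DMSO in 427 cells addressed what shedding and the other actions of PMA changed. Of the 9 members that reached 1 FPKM, 1 fell more than 2-fold and 0 rose, beside 4.67% of 10643 loci lower and 3.91% higher. Bmf fell by 4.02 on the log2 scale, a 16.2-fold lower value and 7th from the lowest of all loci. The 95% counting interval was -4.96 to -3.35 (exact binomial, from estimated fragments, for counting error only). The fall rests on an estimated 15.0 to 22.7 fragments in the PMA library and 243 to 366 in the DMSO library, for the shortest coding and the longest transcript. The log2 difference was 0.88 for Bid, 0.62 for Bcl2l1, 0.45 for Bak1, 0.25 for Mcl1 and 0.22 for Bcl2l11, and -0.77 for Birc2, -0.29 for Bcl2 and -0.11 for Bax. The median over the members was 0.22 beside -0.12 over all loci. When each library was scaled to the same FPKM sum, the values of Mcl1 and Bcl2l11 turned just below 0 and the loci split into 284 higher and 867 lower, from 416 and 497.

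In SP2bKD cells the same 9 members gave 1 lower and 0 higher, beside 5.69% of 10624 loci lower and 3.51% higher. Bmf fell by 3.07, an 8.39-fold lower value with an interval of -3.65 to -2.58, 16th from the lowest. Bid gave 0.98 and passed 2-fold at 1.10 when libraries were scaled by the median ratio, a scaling that also turned the split of all loci from 373 higher and 605 lower to 472 and 431. The other log2 differences were 0.57 for Bak1, 0.49 for Mcl1, 0.42 for Bcl2l1, 0.26 for Bcl2, -0.06 for Bcl2l11, -0.33 for Bax and -0.40 for Birc2. Bcl2l11 changed its sign to 0.06 under the median ratio scaling. The median over the members was 0.26 beside -0.15 over all loci.

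**Figure D2:**
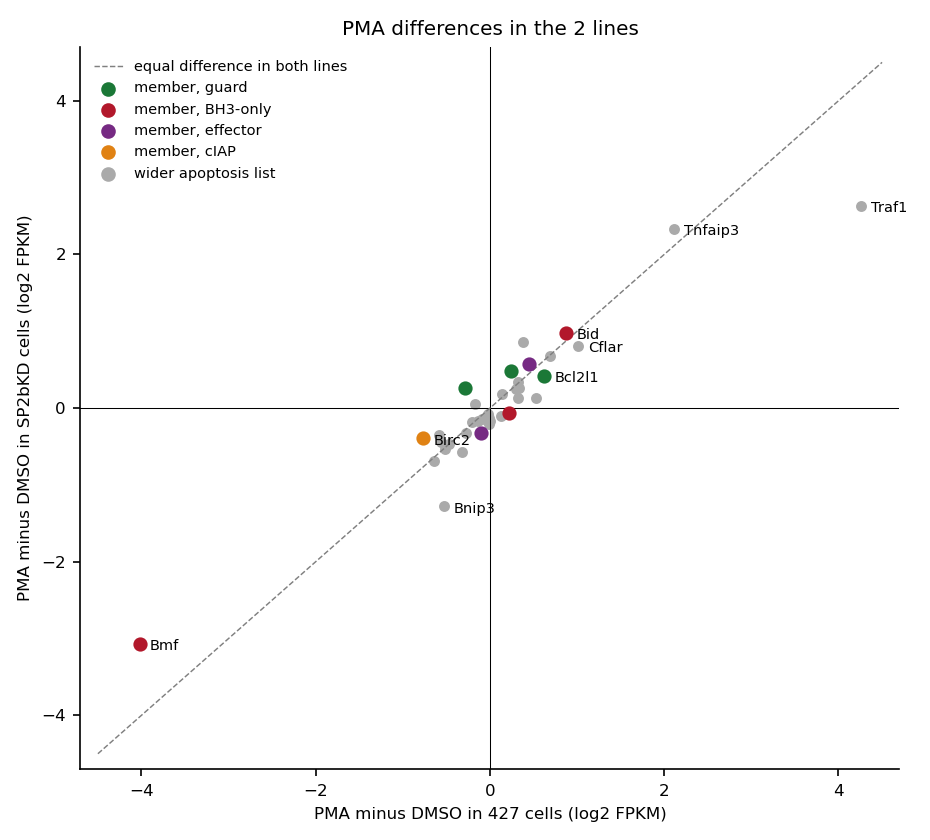
Log2 difference of PMA minus DMSO in 427 cells (horizontal) and in SP2bKD cells (vertical) for the members and the wider apoptosis list at 1 FPKM or more; a point is 1 gene and the dashed line marks equal differences. Bmf lies far from the other genes at -4.02 and -3.07, and Traf1 and Tnfaip3 of the wider list lie at the opposite end.

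The PMA differences of the 2 lines had the same sign for 7 of the 9 members, beside 81.4% of 10845 loci, and these 2 comparisons share no library. For the difference of the PMA differences, 0 of 9 members passed 2-fold, beside 1.18% of 10845 loci higher and 2.09% lower in SP2bKD cells. Bmf came closest at 0.95, and gave 1.00 when libraries were scaled to the same upper quartile and 0.12 with 1 FPKM added to each library. Bcl2 gave 0.55, Birc2 0.37 and Mcl1 0.24, and the lowest value was -0.28 for Bcl2l11. Scaling to the FPKM sum turned the split of all loci from 128 higher and 227 lower to 196 and 125, and the signs of Bcl2l1 and Bax with it.

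The comparison of SP2bKD with 427 cells gave 0 of 9 members past 2-fold with DMSO, beside 3.11% of 10706 loci higher and 2.76% lower. The members' log2 differences ran from -0.35 for Mcl1 to 0.27 for Bcl2l11, with a median of 0.017 beside 0.046 over all loci. With PMA, 8 members reached 1 FPKM and 0 passed, beside 2.19% of 10518 loci higher and 2.75% lower. Values ran from -0.36 for Bax to 0.56 for Bcl2, with 0.48 for Birc2, and the median was -0.061 beside 0.024. Bmf was below 1 FPKM in both PMA libraries and was not counted. In the DMSO and PMA libraries 10 loci took 87.3% to 94.2% of the FPKM sum, so scaling to that sum follows few loci. It shifted the median of all loci to 1.01 with DMSO and 1.26 with PMA. Under that scaling 4 and 7 members were past 2-fold, all higher, beside 5445 loci higher and 90 lower with DMSO and 8396 and 86 with PMA. It also turned the sign of Mcl1, Bax and Bak1 in both comparisons, of Bid with DMSO, and of Bcl2l1 and Bcl2l11 with PMA.

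**Figure D3:**
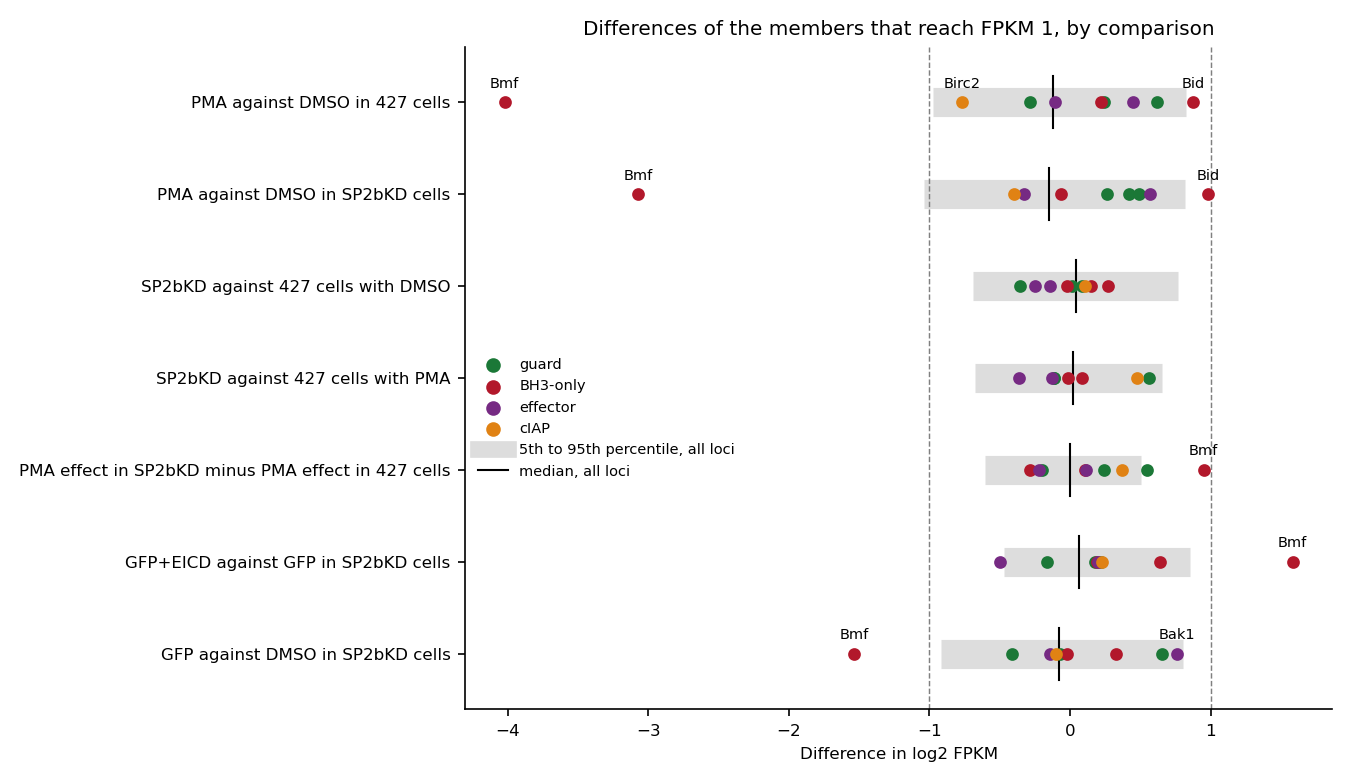
Difference in log2 FPKM (horizontal) for the members that reach 1 FPKM in each of the 7 comparisons (vertical); a point is 1 member coloured by its role, the grey bar runs from the 5th to the 95th percentile of all loci and the black line is their median. Bmf is outside the grey bar in every comparison except the 2 of SP2bKD against 427 cells (it is not plotted in the one with PMA), and Bid lies beyond the 95th percentile with PMA in both lines. Bak1 lies just below the 5th percentile with EICD, and Bcl2 just above the 95th percentile for the difference of PMA differences.

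The comparison of GFP+EICD with GFP in SP2bKD cells addressed what EICD changed when supplied by a construct. Of 9 members, 1 rose and 0 fell, beside 3.58% of 10682 loci higher and 0.506% lower. Bmf rose by 1.58 on the log2 scale with an interval of 1.23 to 1.96 and ranked 111th from the highest. Bcl2l11, the other member higher by more than 1.5-fold, gave 0.64 with an interval of 0.40 to 0.87. Bak1 gave -0.50, the lowest value among the members, and Mcl1 gave -0.16. The other 5 values, of Bcl2, Bid, Bax, Bcl2l1 and Birc2, lay between 0.18 and 0.23. The median over the members was 0.20 beside 0.067 over all loci. Under scaling to the FPKM sum the loci split into 280 higher and 84 lower, from 382 and 54.

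The GFP library also differed from the SP2bKD DMSO library, although both lack the EICD construct. Transfection, sorting and vehicle differ between these 2 libraries, serum withdrawal is stated only for the DMSO library, and the clone of the DMSO library was not given, so their parts cannot be told apart. Of 9 members, 1 was lower and 0 were higher, beside 4.14% of 10687 loci lower and 3.56% higher. The log2 difference of Bmf was -1.53, with an interval of -1.93 to -1.19. Its level with EICD, 3.36 FPKM, was thus near the 3.28 FPKM of SP2bKD DMSO, and the rise with EICD starts from the lower GFP library. The log2 difference was 0.76 for Bak1, 0.65 for Mcl1 and -0.41 for Bcl2, beside -0.50, -0.16 and 0.18 with EICD, and the 2 comparisons share the GFP library. Summed FPKM of the thymic epithelial markers was 6794 in SP2bKD DMSO, 15032 in GFP and 10870 in GFP+EICD, most of it from Krt5 at 4246, 10705 and 7993 FPKM. Krt14, Cdh1 and Foxn1 were also higher in GFP than in SP2bKD DMSO, at 3820 against 1785, 147 against 141 and 15.2 against 13.2 FPKM. Krt8, Krt18 and Epcam were lower, at 143 against 311, 49.5 against 89.6 and 153 against 209 FPKM. The part of these differences in the members' values was not tested.

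Summed by role, the guards Mcl1, Bcl2 and Bcl2l1 came to 115 FPKM in 427 DMSO, 145 in 427 PMA, 99.0 in SP2bKD DMSO, 136 in SP2bKD PMA, 134 in SP2bKD GFP and 128 in SP2bKD GFP+EICD. The BH3-only members Bcl2l11, Bmf and Bid came to 44.4, 67.9, 46.8, 71.2, 51.7 and 67.2 FPKM in the same order. For these members the PMA libraries and the GFP+EICD library were the 3 highest. The ratio of guards to BH3-only genes was 2.60, 2.14, 2.12, 1.91, 2.60 and 1.91 in that order. The difference with PMA depends on the genes summed. The guards and BH3-only genes of the wider list were then added, a choice made after these ratios were seen. The ratio became 1.68, 1.67, 1.86, 1.82, 1.59 and 1.08, so that DMSO and PMA libraries of a line were nearly equal while GFP+EICD remained below GFP. The BH3-only sum became 117, 134, 98.9, 117, 131 and 182 FPKM, with GFP above SP2bKD PMA. Pmaip1, the highest of the added BH3-only genes in each library, was at 47.2 FPKM in GFP and 75.5 FPKM in GFP+EICD. Among the members alone, Bid made up 61.0% to 79.4% of the BH3-only sum and Bmf 0.255% to 7.0%. The fall of Bmf therefore hardly enters the members' ratio. Mcl1 made up 66.6% to 77.1% of the members' guard sum, and these shares would be smaller with the wider list added. Bcl2l2, a guard of the wider list, was at 68.8 to 85.1 FPKM. It exceeded Mcl1 in SP2bKD DMSO, at 85.1 against 65.9 FPKM. These are sums of RNA levels and not of protein.

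**Figure D4:**
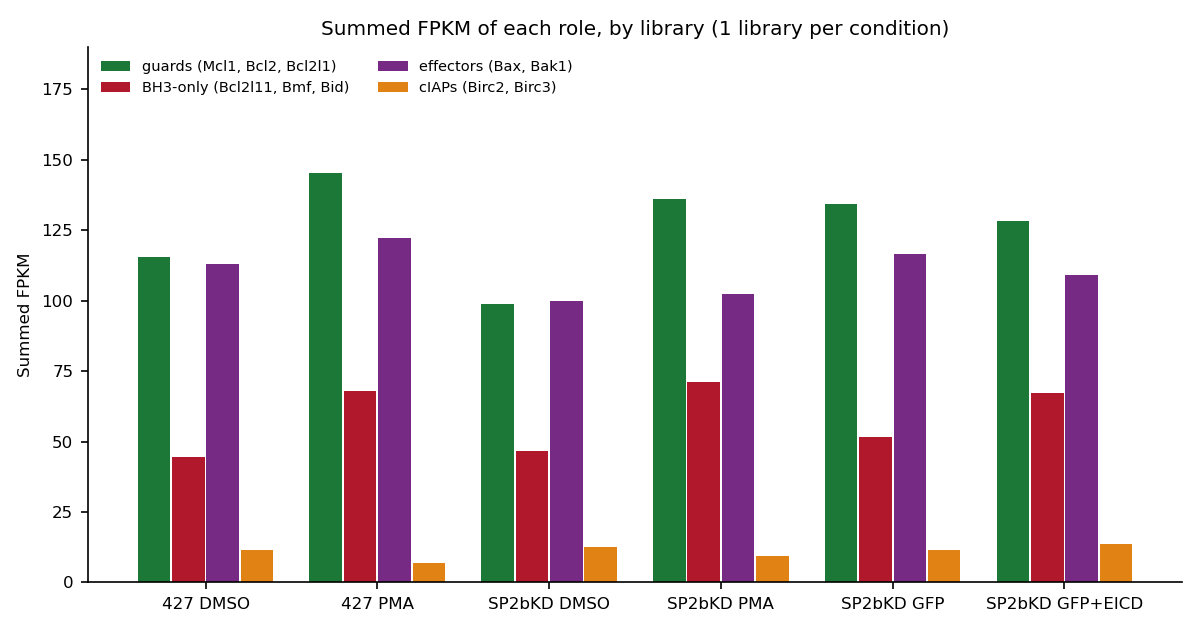
Summed FPKM (vertical axis, from 0) of guards, BH3-only genes, effectors and cIAPs in each of the 6 libraries; a bar is 1 library, with no error. The sum of the BH3-only members Bcl2l11, Bmf and Bid is highest in the PMA and GFP+EICD libraries, at 67.2 to 71.2 FPKM, against 44.4 to 51.7 FPKM in the other 3. This order does not hold when the BH3-only genes of the wider list are added.

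The wider apoptosis machinery was followed in 43 further genes, of which 40 had a row and 28 or 29 reached 1 FPKM in a comparison. With PMA in 427 cells 3 of 29 rose and 0 fell, beside 3.91% of all loci higher and 4.67% lower. Traf1, an adaptor that binds cIAPs, rose from 0.133 to 2.73 FPKM (4.26 on the log2 scale). Tnfaip3, which encodes A20, a ubiquitin-editing inhibitor of NF-kappaB signalling, rose from 15.0 to 64.7 FPKM (2.11). Cflar, which encodes c-FLIP, an inhibitor of caspase-8, rose from 12.5 to 25.2 FPKM (1.01), just past 2-fold. Its counting interval of 0.87 to 1.16 included values within 2-fold. The other guards, BH3-only genes, IAP genes and caspases gave 0 past 2-fold in either direction, with values from -0.64 to 0.69.

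With PMA in SP2bKD cells 2 of 29 rose and 1 fell, beside 3.51% of all loci higher and 5.69% lower. Traf1 rose from 0.342 to 2.18 FPKM (2.63) and Tnfaip3 from 9.99 to 50.4 FPKM (2.33), while Cflar went from 8.82 to 15.5 FPKM (0.81), within 2-fold. The PMA difference of Cflar thus differed between the lines by only -0.20. Bnip3, a mitochondrial relative of the family with a part in mitophagy, fell from 35.3 to 14.5 FPKM (-1.28). For the difference between the lines Traf1 passed at -1.62, from an estimated 1.37 to 12.2 fragments in 427 DMSO and 3.36 to 29.9 in SP2bKD DMSO, and went below 2-fold with 1 FPKM added. Bnip3 was higher in SP2bKD DMSO than in 427 DMSO, at 35.3 and 15.1 FPKM (1.22), and was the 1 gene of 28 past 2-fold there. With PMA 0 of 29 passed between the lines.

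With EICD 1 of 28 wider genes rose and 0 fell, a share near the 3.58% of all loci that were higher. Bbc3, which encodes the BH3-only protein PUMA, rose from 3.12 to 9.35 FPKM (1.59, interval 1.00 to 2.24), a size next to that of Bmf, and ranked 110th from the highest. Unlike Bmf, Bbc3 differed little between SP2bKD DMSO and GFP, at 3.01 and 3.12 FPKM, and with PMA it gave -0.32 in 427 and -0.57 in SP2bKD cells. The class of other BH3-only genes held 5 genes, of which 3 reached 1 FPKM. Between GFP and SP2bKD DMSO, Bnip3 was lower at 7.08 against 35.3 FPKM (-2.31) and Tnfaip3 higher at 27.8 against 9.99 FPKM (1.48).

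Among 3801 other loci that reached 1 FPKM and ranged at least 2-fold over the libraries, the 5 with the level pattern most like that of Bmf over the 6 libraries were Kank2, Zer1, H6pd, Tctn1 and Adamts7. Pearson's r of log2 FPKM (0.01 added) ran from 0.989 to 0.997, and 113 of the loci exceeded 0.95. Kank2 ranged from 5.0 to 10.1 FPKM and Adamts7 from 1.53 to 4.44 FPKM, much narrower ranges than that of Bmf.

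**Figure D5:**
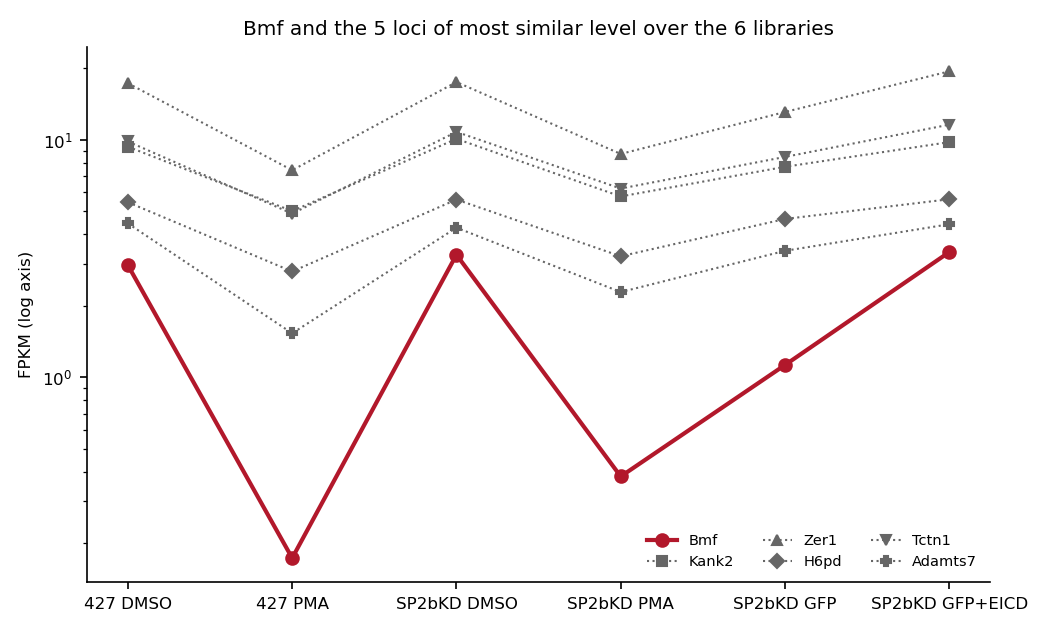
FPKM on a log axis (vertical) of Bmf and of the 5 loci with the most similar levels in the 6 libraries (horizontal); a point is 1 library and the lines only join points of 1 gene. All 6 genes are lowest in 427 PMA, and Bmf has the widest range, 0.173 to 3.36 FPKM.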

How the data were processed

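RNA of 6 libraries, 1 per condition, was sequenced as paired ends of 100 bases. The authors aligned reads with TopHat2 2.1.1 (the submitters' processing notes also name STAR 2.4.0b), computed FPKM with Cufflinks 2.1.1, normalized with Cuffdiff 2.1.1 and deposited FPKM, 1 value for each locus, on GRCm38. The loci are 8948 annotated genes, 12836 with added isoforms and 3217 new ones. FPKM depends on the gene models and on the fragments mapped, so overlapping genes on either strand can share reads. Groups came from the sample labels.

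From the deposited FPKM, log2 differences were computed with 0.01 added to both libraries (for EICD, to the GFP+EICD library only, for loci at 0.01 or more with GFP), over loci with a symbol that reached 1 FPKM in a library compared. No p-value was computed, since each condition has 1 library. The members, the wider list, the markers and the comparisons were chosen with earlier results of these data known. All members are named, and wider-list genes where they passed 2-fold. Also named are Bcl2l2 and Pmaip1 for their levels in the role sums, Sppl2b, St14 and Bcl2l13 as checks, and the 5 loci most like the member with the widest range. Bcl2a1b, Bcl2l15 and Tradd had no row under these symbols. Bcl2l12 has a newly assembled row at 447 to 1587 FPKM, and its annotated row was used.

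Depth was estimated from single-transcript genes of over 2500 bases, as the number of fragments whose whole multiples best match the lowest values, in steps of 50000. The match was partial, with a mean cosine of the distance from whole multiples of 0.297 to 0.477, over 126 to 185 loci of a library. Fragments per gene follow from this depth and the annotated transcript lengths (GENCODE vM21). Intervals are exact binomial at 95%, from the fragments estimated for the shortest coding transcript, for counting error only. The scripts were tested on simulated data. Start windows came from RefSeq (GRCm38.p6), with all 10 members matched. Python 3.11.15, NumPy 2.4.6, pandas 2.3.3, SciPy 1.17.1 and matplotlib 3.10.9 were used. Alternatives changed the amount added, the minimum, the scaling, the fold and the row of a repeated symbol.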

Additional observations from a re-analysis of the deposited data

Results flagged for a closer look

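The log2 difference of PMA minus DMSO had opposite signs in the 2 lines for 2 members. Bcl2 gave -0.29 in 427 cells and 0.26 in SP2bKD cells, so that the difference between the lines was 0.55. Bcl2l11 gave 0.22 in 427 cells and -0.06 in SP2bKD cells, a difference of -0.28, and the SP2bKD value turned to 0.06 under scaling by the median ratio. Each line has 1 library per treatment, so neither difference was tested.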

How the results depend on the processing

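No paired analysis was possible because each condition has 1 library and the shared number does not mark a pair. For the same reason no library could be left out. Bmf, the only member past 2-fold, did not reverse its direction under the alternatives. The wider-list genes were followed by counts alone. The fall of Bmf with PMA ranged from -4.05 to -1.75 in the 427 line and, in the SP2bKD line, from -3.07 to -1.63, and its rise with EICD from 1.04 to 1.58, with the end nearest 0 in each case from 1 FPKM added. No member symbol repeats, so summing the rows of a symbol gave no further value.

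In each direction taken alone, all loci gave 5.10% to 8.93% with no minimum and 2.71% to 9.88% with a minimum of 0.1. At 1.5-fold they gave 2.60% to 16.5%, over the 7 comparisons in each case. The counts of members and wider genes below add both directions. The share of all loci beside such a count is therefore the higher and lower shares together. Counts past 2-fold moved as follows, with the comparisons in the order PMA in 427, PMA in SP2bKD, SP2bKD against 427 with DMSO, the same with PMA, the difference of PMA differences, EICD, and GFP against DMSO. With no minimum the members gave 2, 2, 1, 2, 1, 2 and 2, through Birc3 and, between lines with PMA, also Bmf, and the wider list gave 5, 5, 1, 3, 3 and 5, all but PMA in SP2bKD. With a minimum of 0.1 Bmf passed between the lines with PMA (1 member), and the wider list gave 4, 1, 2, 2 and 4 in the last 5 comparisons. With a minimum of 10 Bmf was no longer tested, and the members gave 0 in both PMA comparisons, with EICD and with GFP. The wider list gave 0 for the difference and EICD. All loci gave 3.20% higher and 1.51% lower with PMA in 427 cells, and 3.04% and 2.58% in SP2bKD cells. They gave 1.60% and 0.197% with EICD, 2.29% and 1.61% with GFP, and 0.432% and 1.13% for the difference. Scaling to the upper quartile or by the median ratio gave 2 members with PMA in SP2bKD (Bmf and Bid). There all loci gave 3.68% higher and 5.32% lower by the upper quartile, and 4.44% and 4.06% by the median ratio. The upper quartile gave 1 member for the difference (Bmf), beside 1.28% of all loci higher and 1.93% lower. Scaling to the FPKM sum gave 2 members with PMA in each line and 0 wider genes for the difference. Between the lines it gave 4 members and 15 wider genes with DMSO, and 7 and 21 with PMA. All loci then gave 2.67% higher and 8.15% lower with PMA in 427 cells, and 3.64% and 4.87% in SP2bKD cells. They gave 50.9% and 0.841% between the lines with DMSO, 79.8% and 0.818% with PMA, and 1.81% and 1.15% for the difference. At 1.5-fold the members gave 4, 2, 1, 2 and 3 for the PMA comparisons, the difference, EICD and GFP. The wider list gave 5, 7, 2, 2, 2, 5 and 6. At that fold all loci gave 8.10% higher and 14.4% lower with PMA in 427 cells, and 7.89% and 16.5% in SP2bKD cells. They gave 3.65% and 5.33% for the difference, 10.5% and 2.60% with EICD, and 8.01% and 12.0% for GFP. With 1 FPKM added the wider list gave 0 for the difference, beside 0.387% of all loci higher and 1.12% lower. The highest row of each symbol, chosen after the rows of Bcl2l12 were seen, gave 1 wider gene between the lines with PMA. It gave 2 for the difference. All loci gave 2.19% higher and 2.75% lower between the lines with PMA, and 1.18% and 2.09% for the difference.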
